A study of Oryctolagus cuniculus with 8 samples.

Results

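The genes described here carry out or control the burning of fatty acids. They are the mitochondrial oxidation genes CPT1A, CPT2, ACADVL, ACADM and HADHA, the PPAR targets PDK4 and ANGPTL4, the receptor PPARA and the coactivator PPARGC1A, 9 genes picked by symbol for their function. A row with the symbol was found for 8 of the 9, of 25666 genes in all, and CPT1A was not analysed here, since no row carried that symbol. RNA of 8 retinas from wild-type male Chinchilla rabbits aged about 10 months was sequenced, 2 retinas from each of 4 diets eaten for 6 months. The control group (ND) ate standard chow, to which 10% lard and 0.5% cholesterol were added for the high-fat diet (HFD) and 40% sucrose for the high-sucrose diet (HSD). Chow with the same lard and cholesterol plus 35% sucrose was the high-fat plus high-sucrose diet (HFSD). The labels do not say whether the 2 retinas of a diet came from separate rabbits, so that the p-values below measure only the spread between these retinas.

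Long-chain fatty acids enter the mitochondrion as carnitine esters, made by CPT1 at the outer membrane and turned back to acyl-CoA by CPT2 at the inner one, and are then shortened in a cycle of dehydrogenation, hydration, a second dehydrogenation and thiolysis. PPARA is a nuclear receptor that binds fatty acids and, with an RXR partner and coactivators such as PPARGC1A, switches on genes of this cycle along with PDK4, which restrains the conversion of pyruvate to acetyl-CoA, and ANGPTL4, a secreted inhibitor of lipoprotein lipase. The retina is known for its use of glucose, yet photoreceptors can also burn fatty acids, and the neighbouring pigment epithelium burns those of shed outer segments and passes ketone bodies back.

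None of the 8 genes differed between diets past the adjusted threshold. The clearest separations were a lower PPARA in every retina from a diet with lard and cholesterol, a lower CPT2, in FPKM though not after rescaling, in every retina from a diet with sucrose, and a PDK4 level that was lowest in 3 of the 4 sucrose retinas. Each of these is given below with its value in every retina, as FPKM (fragments on a gene per kilobase of its length, scaled for the depth of its library).

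The libraries differed in ways that touch these values. The depths by which FPKM was divided, recovered from the values, ran from 15764577 to 22785832 fragments. In ND replicate 2 and HFD replicate 1 the fragments summed over genes came to 102.6% and 102.3% of that depth, against 96.4% to 98.2% elsewhere, so FPKM was divided by some other total, which the values do not show. The FPKM values of these 2 libraries summed to 611233 and 653354, against 564389 to 577406 in the other 6, so a gene with an equal share of all FPKM reads higher in them. Rod markers summed to 26840 FPKM or more in every library, with 5 of 7 listed genes present, as a retina should have. HSD replicate 2 also held muscle genes, with a sum of 536 FPKM over 12 of 16 listed markers against 6.69 to 9.16 elsewhere. Pigment epithelium markers, 10 of 10 present, summed to 247 to 324 FPKM on ND, 49.1 to 92.3 on HFD, 38.7 to 50.7 on HSD and 26.1 to 73.2 on HFSD. In such bulk tissue, fewer cells of a type and less RNA per cell cannot be told apart.

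**Figure D1:**
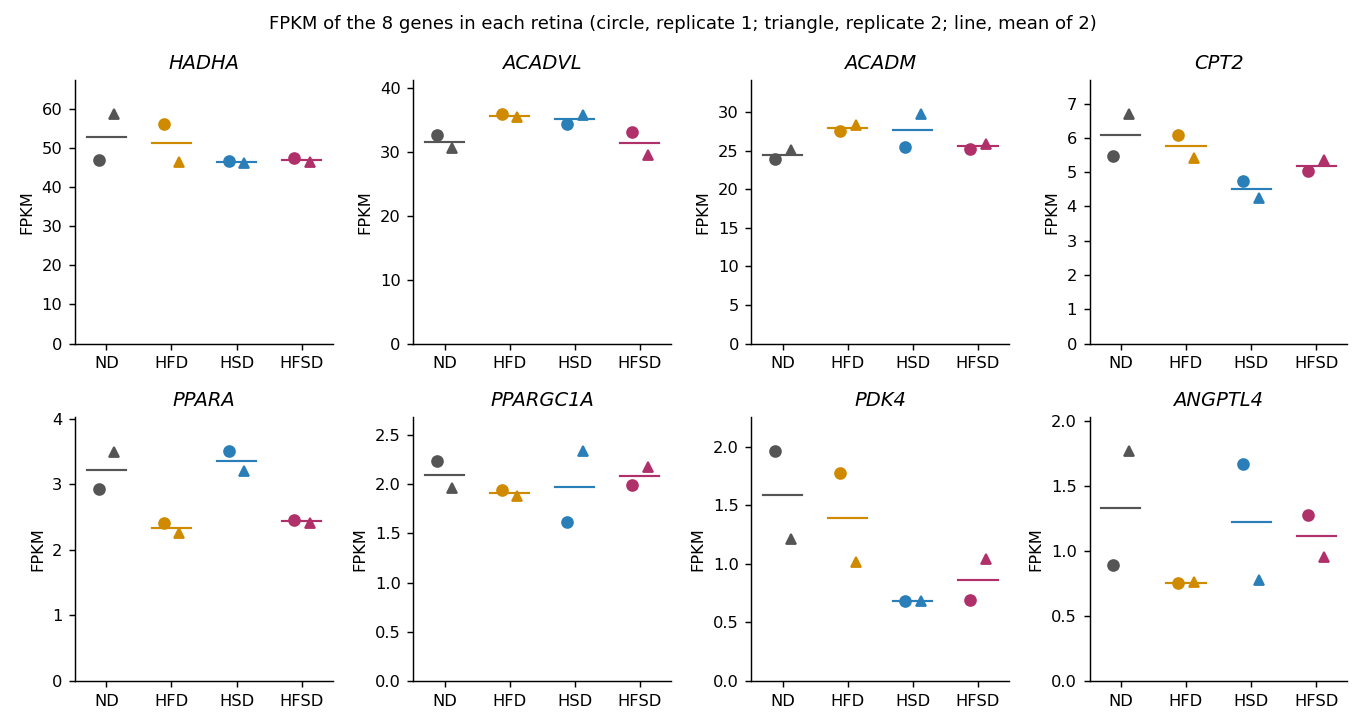
FPKM (vertical axes, each from 0) of the 8 genes in each retina, with the 4 diets on the horizontal axes; circles are replicate 1, triangles replicate 2 and lines the mean of 2. PPARA lies between 2.25 and 2.46 in the 4 retinas from HFD and HFSD and between 2.93 and 3.50 in the other 4, while PDK4 on ND and HFD, and ANGPTL4 on ND and HSD, differ widely between retinas of the same diet.

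The genes of the cycle itself stood well above their regulators. Per gene length, the mean over 8 retinas was 49.4 FPKM for HADHA, 33.4 for ACADVL, 26.4 for ACADM, 5.38 for CPT2, 2.83 for PPARA, 2.02 for PPARGC1A, 1.13 for PDK4 and 1.11 for ANGPTL4. Ranked by these means, each gene above PDK4 exceeded the next in 8 of 8 retinas, a description with no test, since the same retinas set the ranking. PDK4 exceeded ANGPTL4 in 4 of 8 retinas, so these neighbours did not differ beyond their spread. Among the 12204 protein-coding genes tested, HADHA stood at percentile 83.7 of mean FPKM and ANGPTL4 at 4.11.

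Most relatives of the low members were more abundant. PPARD, a receptor of the same family, averaged 10.0 FPKM, and PPARG 0.125. PPARGC1B, the sister coactivator of PPARGC1A, averaged 18.3 FPKM. Of the pyruvate dehydrogenase kinases, PDK2 averaged 34.3 and PDK3 11.7 FPKM, and CPT1B, the muscle-type form of CPT1, averaged 5.53. The members thus included the least abundant kinase of the 3 with a row and the lower of the 2 coactivators. The coefficient of variation over the 8 retinas was 7.23% for ACADVL, 7.35% for ACADM, 10.3% for HADHA, 11.3% for PPARGC1A, 14.1% for CPT2, 18.2% for PPARA, 37.5% for ANGPTL4 and 43.8% for PDK4, the 2 least abundant members having the widest spread. As few as 63 fragments lay behind a PDK4 or an ANGPTL4 value, and at least 664 behind those of the 3 cycle enzymes.

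Transport into the mitochondrion was represented by CPT2, the carnitine palmitoyltransferase of the inner membrane. Its level was 5.47 and 6.69 FPKM on ND, 6.10 and 5.41 on HFD, 4.75 and 4.25 on HSD, and 5.03 and 5.35 on HFSD. All 4 retinas from diets with sucrose lay below all 4 without it, by a narrow gap between 5.35 and 5.41, with means of 4.85 ± 0.464 and 5.92 ± 0.606 FPKM (SD, n = 4). Of all genes tested, 12.9% separated in this way in either direction, and 6.48% with sucrose lower. The average effect of sucrose was a log2 difference of -0.24 on the log2(FPKM + 1) scale, with a 95% interval from -0.49 to 0.007 (limma, Benjamini-Hochberg adjusted p = 0.284). Against ND alone, HSD gave -0.36 (adjusted p = 0.690) and HFSD -0.19 (adjusted p = 0.786), with the same ND retinas in both. After each library was rescaled to the same sum (TPM), CPT2 read 9.60 and 10.95 on ND, 9.34 and 9.36 on HFD, 8.41 and 7.46 on HSD, and 8.82 and 9.39 on HFSD. On that scale HFSD replicate 2 lay above both HFD retinas, the groups overlapped, and the sucrose difference was -0.18 (limma adjusted p = 0.412). Without ND replicate 2 and HFD replicate 1 together it was -0.14 in FPKM. The HSD difference was -0.23 without ND replicate 2 and -0.30 without HSD replicate 2, the library with muscle genes.

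ACADVL, the dehydrogenase that opens the cycle for very long chains, was 32.7 and 30.6 FPKM on ND, 35.9 and 35.5 on HFD, 34.3 and 35.8 on HSD, and 33.2 and 29.5 on HFSD. ACADM, which does the same for medium chains, was 23.9 and 25.1 FPKM on ND, 27.5 and 28.3 on HFD, 25.5 and 29.7 on HSD, and 25.2 and 25.8 on HFSD. Both read higher with HFD and with HSD than with ND, with no overlap, and with HFSD ACADVL overlapped ND while ACADM lay just above it. Such a gap from ND, in either direction, was seen in 25.9% of all genes tested on HFD, 39% on HSD and 42.3% on HFSD. On the TPM scale ACADVL overlapped between HFD (55.0 and 61.4) and ND (57.4 and 49.99). The log2 differences from ND were 0.17 on HFD, 0.15 on HSD and -0.01 on HFSD for ACADVL, and 0.18, 0.16 and 0.06 for ACADM. The ACADM difference with HSD rested much on 1 library, being 0.06 without HSD replicate 2, which held the muscle genes, and 0.27 without HSD replicate 1. Whether lard and sucrose together gave other than the sum of their separate differences was tested by the interaction term, which was -0.33 (95% interval -0.68 to 0.02) for ACADVL and -0.29 (-0.66 to 0.09) for ACADM. Neither passed the threshold (limma adjusted p = 0.9993 for both), and the ACADM term was -0.18 without HSD replicate 2. Sucrose was 40% in HSD and 35% in HFSD, so the term also takes in that difference of dose.

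HADHA, the alpha subunit of the trifunctional protein that carries out the hydration and the second dehydrogenation of long chains, was 46.9 and 58.7 FPKM on ND, 56.2 and 46.4 on HFD, 46.7 and 46.2 on HSD, and 47.4 and 46.4 on HFSD. It was nearly level in 6 retinas, between 46.2 and 47.4 FPKM, and high in the other 2. Those 2 were ND replicate 2 and HFD replicate 1, the libraries with the largest FPKM sums. On the TPM scale HADHA was 96.0 and 86.1 in these 2 and 80.3 to 83.0 in the other 6, so that they stayed the highest, by less. The average sucrose difference of -0.15 (limma adjusted p = 0.464) was 0.0013 without them, and what sets these 2 libraries apart was not tested.

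**Figure D2:**
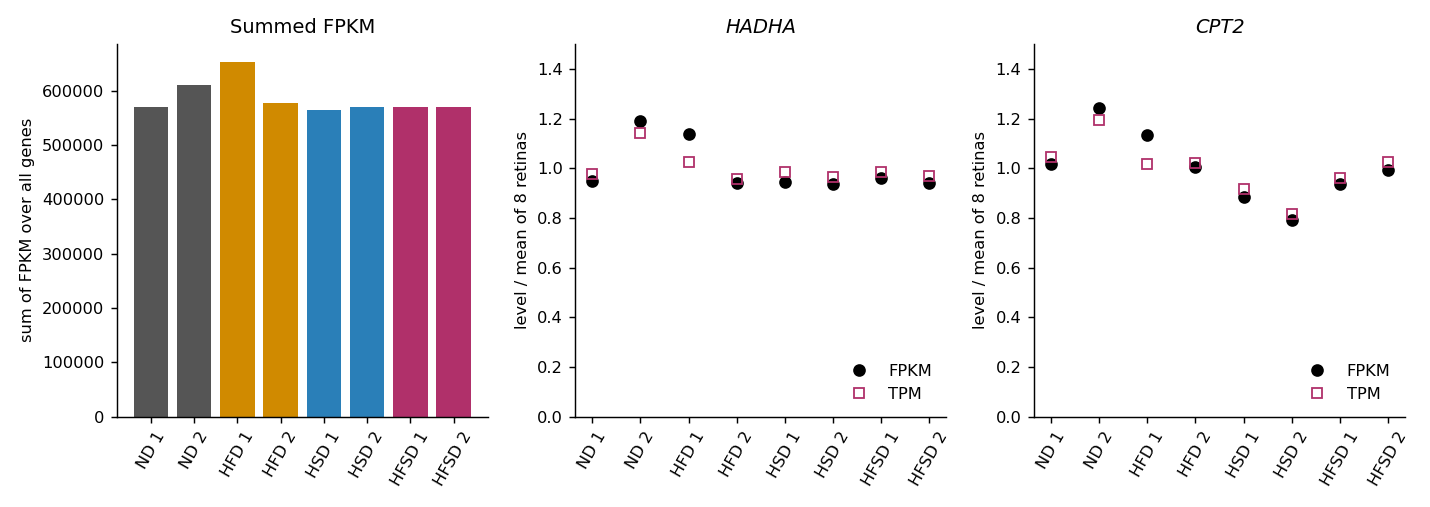
Left, the sum of FPKM over all genes in each library, from 0; middle and right, the level of HADHA and CPT2 in each library divided by its mean over the 8 retinas, as FPKM (filled circles) and as TPM (open squares). The 2 libraries with the largest sums, ND 2 and HFD 1, are those in which HADHA is highest, and rescaling to TPM brings both genes on HFD 1 close to the mean.

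The target with the widest range was PDK4, the kinase that phosphorylates and so inactivates pyruvate dehydrogenase. It was 1.96 and 1.21 FPKM on ND, 1.77 and 1.01 on HFD, 0.684 and 0.684 on HSD, and 0.691 and 1.04 on HFSD. HSD and HFSD replicate 1 were the lowest and nearly equal, while HFSD replicate 2 overlapped HFD. The means were 0.775 ± 0.177 FPKM with sucrose and 1.49 ± 0.450 without (SD, n = 4). The sucrose difference on the log2(FPKM + 1) scale was -0.47, with a 95% interval from -0.89 to -0.06. It passed an unadjusted limit of 0.05, as did 18.3% of all genes, 9.16% with sucrose lower. It did not pass the adjusted one (limma adjusted p = 0.233). HSD differed from ND by -0.60 (limma adjusted p = 0.690) and HFSD by -0.46 (adjusted p = 0.680). Without ND replicate 1 the HSD difference was -0.39. These estimates understate the change of a gene near 1 FPKM, because 1 was added to each value. In voom, fitted to the fragments recovered from the FPKM steps, the sucrose difference was -0.95 (adjusted p = 0.164).

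GFAP, an astrocyte marker, and genes of myelin-forming glia varied along with PDK4, while S100B, also an astrocyte marker, did so less closely. GFAP, an intermediate filament protein, was 524 and 12.1 FPKM on ND, 216 and 203 on HFD, 2.37 and 1.08 on HSD, and 3.06 and 69.5 on HFSD. MBP, a protein of the myelin that the rabbit has in the retina beside the optic disc, was 252 and 6.55, 172 and 104, 4.34 and 4.16, and 4.02 and 41.9 FPKM in the same order. The 3 retinas with PDK4 under 0.7 FPKM thus had the least of both, and the 2 with PDK4 above 1.7 FPKM had the most MBP and were the first and second in GFAP. ND replicate 2 went the other way, with PDK4 at 1.21 FPKM, above HFD replicate 2 and HFSD replicate 2, and less GFAP and MBP than either.

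For the whole lists, the 4 astrocyte markers, all with a row, summed to 380 to 1114 FPKM on ND, 604 to 961 on HFD, 234 to 476 on HSD and 328 to 458 on HFSD. The 7 myelin and oligodendrocyte genes, a list added after values were seen, all with a row, summed to 34.5 to 379 FPKM on ND, 172 to 262 with HFD, 26.8 to 28.6 with HSD and 25.8 to 79.9 with HFSD. S100B, the most abundant of the astrocyte list in every library, was 471 FPKM in HSD replicate 1, where PDK4 was at its lowest, and 362 in ND replicate 2 and 398 in HFD replicate 2, where PDK4 was higher. PAX2 and MOBP were at 0 in both HSD retinas and HFSD replicate 1, and OLIG1 was at 0 in ND replicate 2, HSD replicate 1 and HFSD replicate 1. Some vessel genes were highest in the 2 retinas with the most PDK4 but did not follow it throughout. The 7 mural cell markers, all with a row, summed to 19.1 and 4.32 FPKM on ND, 9.48 and 10.9 with HFD, 3.04 and 7.76 with HSD, and 4.53 and 7.25 with HFSD. RGS5 among them was highest in ND replicate 1 (8.97) and HFD replicate 1 (3.58), and at 0 in HSD replicate 1. In ND replicate 2, where PDK4 was 1.21 FPKM, RGS5 was 0.184, against 1.32 in HSD replicate 2, where PDK4 was 0.684. PDGFRB and ACTA2 of that list did not follow PDK4 either. PDGFRB was 3.28 FPKM in HFSD replicate 1 against 2.59 in HFD replicate 1, and ACTA2 was 1.95 in HSD replicate 2 against 1.23 in HFD replicate 1. Endothelial markers, 7 of 8 present, also disagreed among themselves: CLDN5 was 28.0 and 20.3 FPKM in ND replicate 1 and HFD replicate 1 and 0.534 to 6.85 elsewhere, while KDR, the most abundant, was lowest in ND replicate 1 at 75.8, and their sum ran from 124 to 163 FPKM. The part of glia and vessel cells in the PDK4 values was not tested.

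**Figure D3:**
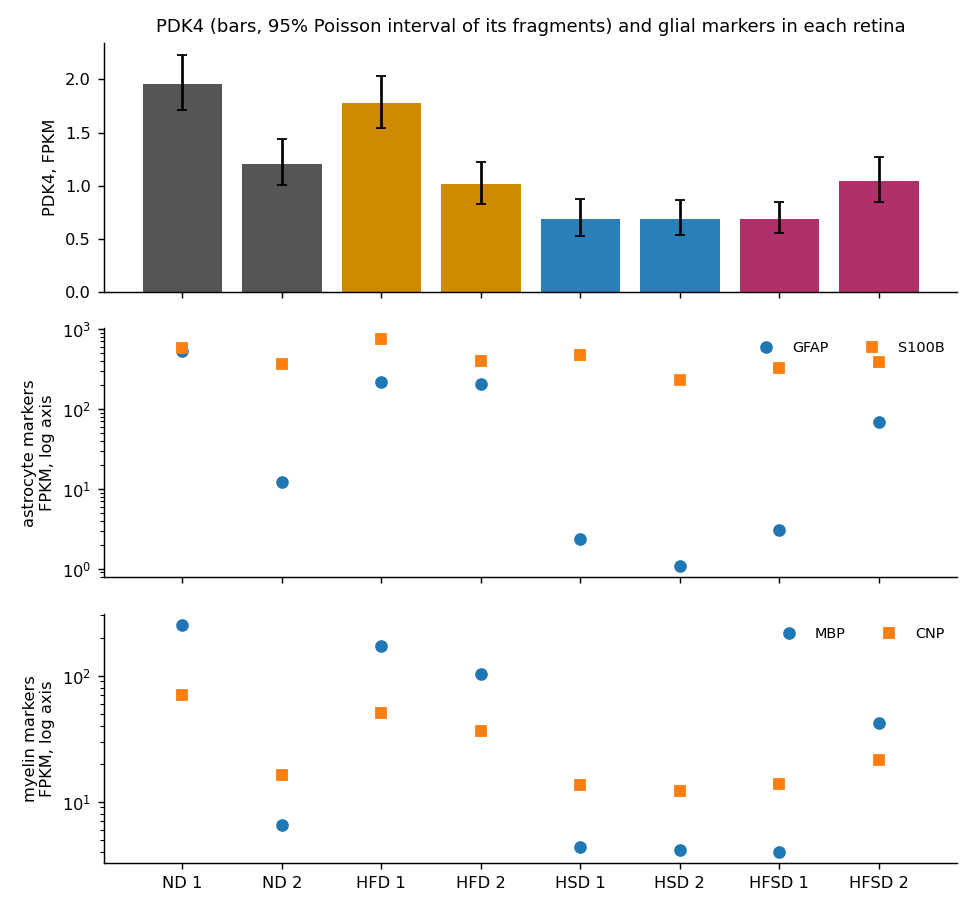
Top, PDK4 in each retina in FPKM, from 0, with the 95% Poisson interval of its fragments, which covers counting error only; middle and bottom, astrocyte markers (GFAP, S100B) and myelin markers (MBP, CNP) in the same retinas, in FPKM on log axes. The 3 retinas with PDK4 near 0.69 FPKM have GFAP between 1.08 and 3.06 FPKM and MBP between 4.02 and 4.34 FPKM, while S100B does not follow PDK4 in HSD 1.

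ANGPTL4, the other target, was 0.891 and 1.76 FPKM on ND, 0.755 and 0.757 on HFD, 1.67 and 0.776 on HSD, and 1.28 and 0.956 on HFSD. In ND and HSD the 2 retinas of a diet differed by about as much as any 2 retinas in the set, and only on HFD were both low. No comparison separated it from that spread, the largest log2 difference being -0.38 on HFD against ND, with a 95% interval from -1.04 to 0.28 (limma adjusted p = 0.9975). It was -0.11 without ND replicate 2 and -0.65 without ND replicate 1.

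PPARA, the receptor, was 2.93 and 3.49 FPKM on ND, 2.41 and 2.25 on HFD, 3.50 and 3.20 on HSD, and 2.46 and 2.40 on HFSD. The 4 retinas from diets with lard and cholesterol lay together below the 4 from diets without, at 2.38 ± 0.0912 against 3.28 ± 0.270 FPKM (SD, n = 4). A separation of this kind, in either direction, was seen in 1.34% of all genes tested, and a lower level with fat in 0.664%. The average fat difference was -0.34 on the log2(FPKM + 1) scale, with a standard error of 0.111 and a 95% interval from -0.60 to -0.08. It passed an unadjusted limit of 0.05, as did 3.2% of all genes, but not the adjusted one (limma, Benjamini-Hochberg adjusted p = 0.9996).

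The means were 2.33 FPKM for HFD against 3.21 for ND, and 2.43 for HFSD against 3.35 for HSD, so the gap was alike without and with sucrose. Against the shared ND retinas the log2 difference was -0.34 for HFD and -0.29 for HFSD. On the TPM scale the fat difference was -0.41, and in voom it was -0.45 (adjusted p = 0.9998 and 0.9993). Between 86 and 140 fragments lay behind each PPARA value. Without either ND replicate 2 or HFD replicate 1, the difference kept its direction, at -0.29 and -0.36, and without both it was -0.31.

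PPARGC1A, the coactivator, was 2.23 and 1.96 FPKM on ND, 1.95 and 1.88 on HFD, 1.61 and 2.33 on HSD, and 1.99 and 2.18 on HFSD. Both HFD values lay just below both of ND, a gap seen in either direction for 25.9% of all genes. The lowest and the highest value both came from HSD, and the log2 differences from ND were -0.09 on HFD, -0.07 on HSD and -0.005 on HFSD. Without 1 library at a time the HFD value ran from -0.15 to -0.02. The interval on HSD ran from -0.51 to 0.37, so a difference of moderate size either way could not be told from none.

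Over the 6 comparisons, limma called 0 of the 8 genes at an adjusted p under 0.05. The share of all genes called was 0.00819% on HFD against ND, 0.0574% on HSD, 0.0164% on HFSD, 0.00819% for fat, 0.344% for sucrose and 0.00819% for the interaction. At an unadjusted p under 0.05, HSD against ND held 2 members (CPT2 and PDK4), fat 1 (PPARA) and sucrose 1 (PDK4), with 0 in the other 3 comparisons. These counts were not stable: HSD held 0 when either HSD retina was left out and 1 on the TPM scale, fat held 0 without ND replicate 2, HSD replicate 1 or HFSD replicate 2, and sucrose held 0 without HFD replicate 1, either HSD retina or HFSD replicate 1. The comparisons with 0 rose to 1 in some settings, among them HFD on the TPM scale, HFSD in voom and the interaction with libraries centred on their medians. The background at an unadjusted p under 0.05 was 7.2% of all genes on HSD, 3.2% for fat and 18.3% for sucrose, and 4.31%, 8.07% and 3.74% on HFD, HFSD and the interaction. At an adjusted p under 0.05, voom also called 0 members in each of the 6.

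The pair of retinas from a diet cleared the ND pair on 1 side for 5 of 8 members with HFD, 5 with HSD and 4 with HFSD, where 25.9%, 39% and 42.3% of all genes did so. With 2 retinas against 2, such a gap is common, and the 3 counts share the same ND retinas. By the study's own rule, a ratio of (mean FPKM + 1) to that of ND past an upper limit or below 0.65, 0 members passed in any diet. Of all protein-coding genes, 1.76% passed for HFD, 3.95% for HSD and 3.43% for HFSD. PDK4 on HSD came nearest, at 0.652, and a different pseudocount or scale carried it past the limit.

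**Figure D4:**
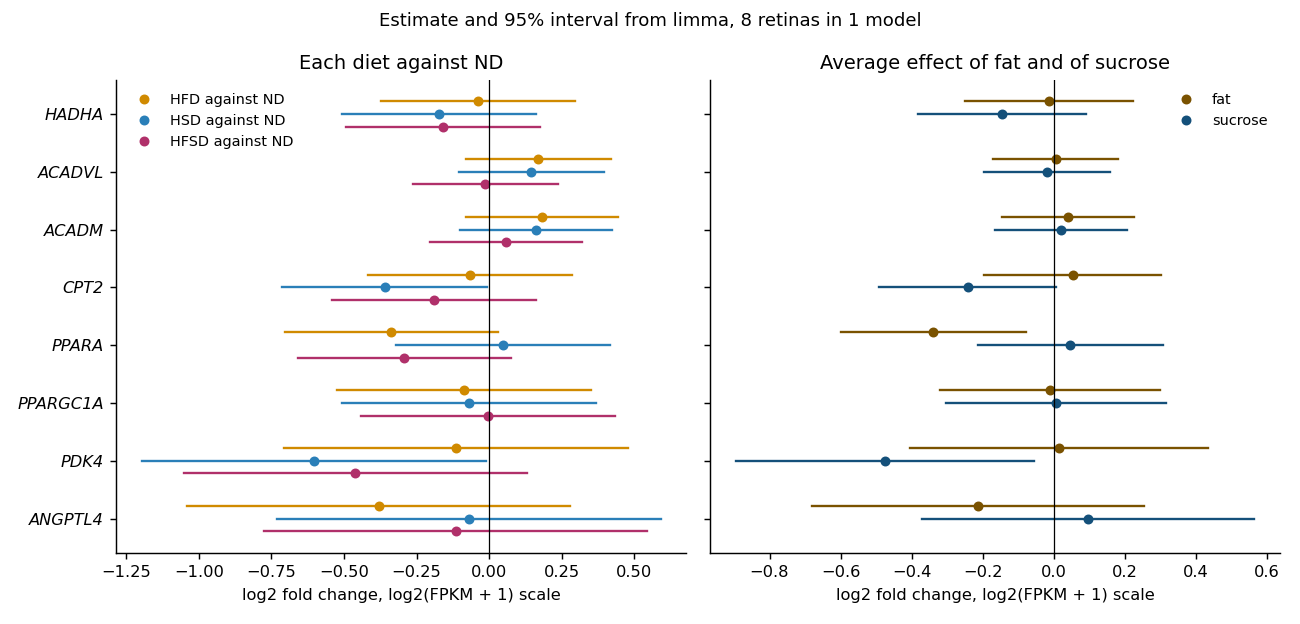
Log2 fold change on the log2(FPKM + 1) scale (horizontal axes) of the 8 genes, with limma estimates as points and 95% intervals as lines, for each diet against ND (left) and for the average effects of fat and of sucrose (right). The intervals that leave out 0 belong to CPT2 and PDK4 on HSD, PPARA for fat and PDK4 for sucrose, and none of these passed adjustment over 12204 genes.

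The rest of the pathway was followed in 7 gene lists, some of which share genes, and no gene of any list was called in any comparison. Of the mitochondrial oxidation and carnitine shuttle genes, 23 of 28 were tested. With sucrose, 17 of the 23 read lower, 4 of them and none of the higher ones at an unadjusted p under 0.05. That was 17.4% of the list, against 9.16% of all genes lower at that limit and 18.3% in either direction. The median log2 difference was -0.15, against -0.007 over all genes. With fat, 13 read higher and 10 lower, with a median of 0.008. SLC22A5, the plasma membrane carnitine carrier, had the lowest unadjusted p of the list against ND. It was at 3.47 and 3.14 FPKM on ND, 3.17 and 2.01 on HFD, 1.99 and 1.55 on HSD, and 2.07 and 1.41 on HFSD. Its difference from ND was -0.64 on HSD and -0.66 on HFSD (limma adjusted p = 0.592 and 0.557). ACADS, the short-chain dehydrogenase, differed by -0.41 on HFSD (adjusted p = 0.588).

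Peroxisomes shorten the longest and the branched chains, and 12 of 17 genes of that route were tested. With sucrose, 9 of these read lower, with a median of -0.18, and 5 were lower at an unadjusted p under 0.05. That was 41.7% of the list, against 9.16% of all genes lower at that limit and 18.3% in either direction. ACAA1, the peroxisomal thiolase, was 27.8 and 24.8 FPKM on ND, 30.6 and 26.8 on HFD, 20.8 and 22.6 on HSD, and 22.0 and 19.6 on HFSD. All 4 retinas with sucrose lay below the other 4 in ACAA1, as in 6.48% of all genes, by -0.35 (limma adjusted p = 0.135). PECR, a peroxisomal reductase, differed by -0.28 with overlap (adjusted p = 0.239).

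Uptake and activation of fatty acids (13 of 16 genes tested) held the lowest p-values against ND of the 7 lists. ACSL5, an acyl-CoA synthetase, was 2.54 and 2.62 FPKM on ND and 0.349 to 0.848 in the 6 other retinas. The differences from ND were -1.14 on HFD, -1.23 on HSD and -1.24 on HFSD (limma adjusted p = 0.746, 0.246 and 0.224). Of the 10 pigment epithelium markers, all but BEST1, TYR and MLANA followed the same split, with both ND retinas highest, and their part in ACSL5 was not tested. DBI, the acyl-CoA binding protein, was 143 and 195 FPKM on ND, 220 and 176 on HFD, 104 and 113 on HSD, and 120 and 94.2 on HFSD, a sucrose difference of -0.75 (adjusted p = 0.0877). LPL, the lipase that ANGPTL4 inhibits, was lower on HFD by -0.45 (adjusted p = 0.9975). The list as a whole had 7 genes higher and 6 lower with sucrose and a median of 0.02.

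Of the 8 lipolysis and ketone body genes tested of 9, 6 read lower and 2 higher with sucrose, with a median of -0.19. At an unadjusted p under 0.05, 2 were lower and 1 higher (37.5% of the list, against 18.3% of all genes). ABHD5, the coactivator of adipose triglyceride lipase, was one of the 2 higher, at 0.36 (limma adjusted p = 0.162). It had no overlap, as was so in either direction for 12.9% of all genes. BDH1, which interconverts the ketone bodies, was -0.46 with overlap (adjusted p = 0.153).

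Müller glia markers, 6 of 6 present, summed to 2583 to 3769 FPKM on ND, 2860 to 3052 on HFD, 1938 to 1944 on HSD and 1832 to 1930 on HFSD, the same split as DBI, ACAA1 and, in FPKM, CPT2. Gene by gene, 5 of the 6 read lower with sucrose and 1 higher. At an unadjusted p under 0.05, 2 were lower, where 9.16% of all genes were. Microglia markers, 7 of 7 present, summed to 13.9 to 23.2 FPKM without sucrose and 9.06 to 12.6 with it, and 4 of the 7 were lower at an unadjusted p under 0.05, where 9.16% of all genes were. Cone markers, 4 of 7 present, summed to 448 to 593 FPKM without sucrose and 763 to 929 with it, and all 4 were higher at that limit, where 9.17% of all genes were, 2 of them past the adjusted threshold of limma. The part of these cells in the sucrose differences was not tested.

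The list of PPAR receptors, partners and coactivators also held corepressors, kinase subunits and mitochondrial factors. With sucrose, 16 of the 22 tested (of 26) read higher, with a median of 0.19. At an unadjusted p under 0.05, 5 were higher, 22.7% of the list, against 9.17% of all genes higher and 18.3% in either direction. These were MED1, NCOA1, the corepressor NRIP1, the kinase subunit PRKAA2 and the mitochondrial factor TFAM. Receptors went both ways, with PPARA at 0.05, PPARD -0.03, RXRB -0.15, ESRRB -0.28, ESRRG 0.19 and RXRG 0.31. With fat, 18 of the 22 read lower, 2 at that limit (9.09% of the list, against 3.2% of all genes in either direction), with a median of -0.06. Those 2 were PPARA and NCOA2, a coactivator of nuclear receptors, at -0.25 (limma adjusted p = 0.9996). ESRRB, an orphan receptor abundant in photoreceptors, was -0.44 on HFSD (adjusted p = 0.622), and RXRG, the partner receptor found in cones, was 0.60 (adjusted p = 0.625). PPARD, by contrast with PPARA, was -0.05 with fat and overlapped.

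Of the PPAR targets, 18 of 30 were tested. With fat, 11 read higher and 7 lower, with a median of 0.02 and 0 at an unadjusted p under 0.05. With sucrose, 7 read higher, 1 at that limit, and 11 lower, 4 at that limit (27.8% of the list in either direction, against 18.3% of all genes), with a median of -0.14. CAT, the peroxide-removing enzyme, was -0.38 on HFD (limma adjusted p = 0.9975). For pyruvate dehydrogenase and its kinases, 9 of 12 genes were tested, and 6 read lower with sucrose, with a median of -0.05. Within the kinases, PDK4 was joined on the lower side by PDK2 at -0.20, while PDK3 was 0.25 (adjusted p = 0.208 and 0.236).

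**Figure D5:**
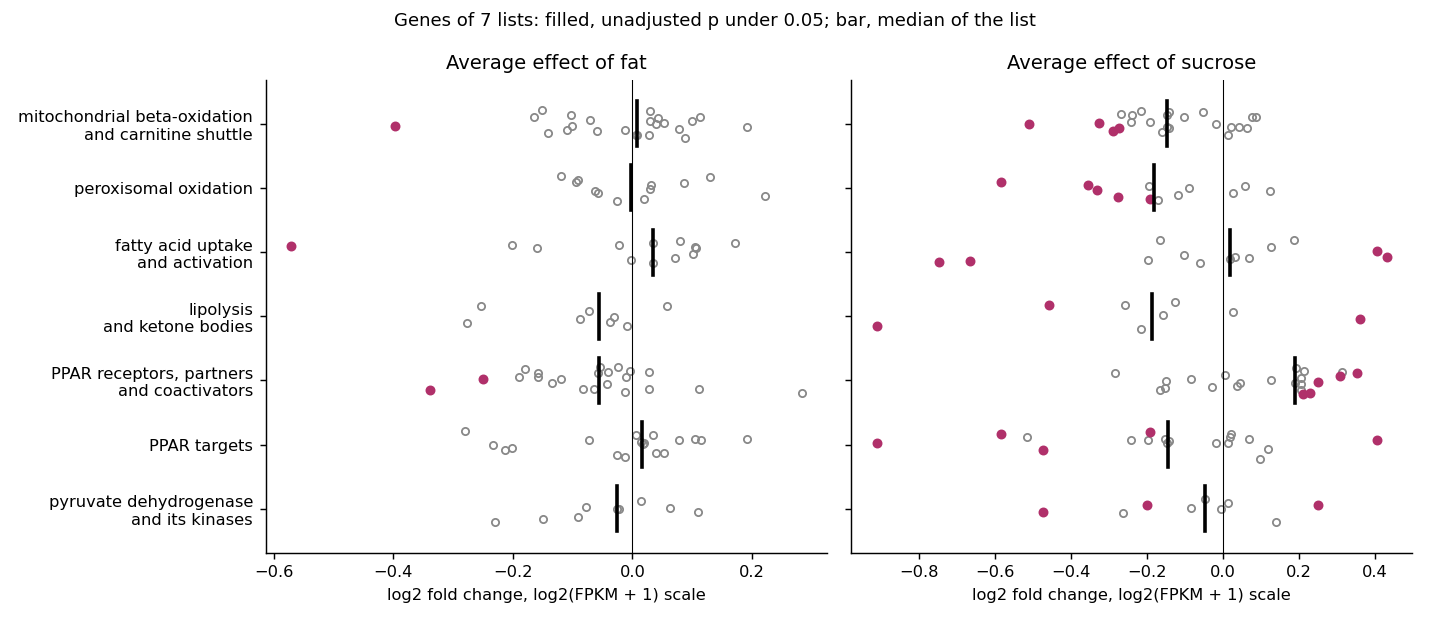
Log2 fold change on the log2(FPKM + 1) scale (horizontal axes) of every tested gene of 7 lists, for the average effect of fat (left) and of sucrose (right). Filled points have an unadjusted p under 0.05, none passed adjustment, and black bars are list medians. The bars for sucrose lie at -0.15 for mitochondrial oxidation, -0.18 for peroxisomal oxidation and 0.19 for the list of PPAR receptors, partners and coactivators. Those for fat lie between -0.06 and 0.03.

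Over the 8 retinas, CPT2 and HADHA were the most alike pair (Pearson r = 0.82 of log2(FPKM + 1)), both high in ND replicate 2, and ACADM and ACADVL gave 0.64. ACADVL gave -0.14 with HADHA, ACADM -0.39 with CPT2, and PDK4 -0.33 with ANGPTL4. PPARA gave r = -0.19 with PDK4 and 0.65 with ANGPTL4. These values describe 8 libraries that share diets and scaling, and carry no test. The protein-coding gene most like each member was KCNH2 for CPT2 (r = 0.97), MRPS25 for ACADVL (0.96), ROGDI for ACADM (0.95), MRPL22 for HADHA (0.98), PCP4L1 for PDK4 (0.97), DSCAML1 for ANGPTL4 (0.97), OXSM for PPARA (0.97) and MTRR for PPARGC1A (0.92). The next after these were UVRAG and CBX7 for CPT2, QDPR and GJA4 for PDK4, RASGRF2 and NEU3 for PPARA, CENPN and TAZ for ACADVL, FAIM and HEATR3 for ACADM, RBM4 and MRPS18A for HADHA, SNRNP200 and SORT1 for ANGPTL4, and AIPL1 and CSGALNACT1 for PPARGC1A.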

How the data were processed

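RNA was extracted from dissected retinas with TRIzol, and libraries were made with a TruSeq kit. The authors checked reads with FastQC, trimmed them, aligned them to a rabbit genome by TopHat2 and dropped reads with several positions. The deposited values are FPKM per gene and library, computed by the authors with an R script. The genome build, annotation and tool versions are not given in the sources used here, so no coordinates are printed.

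Values were tested as log2(FPKM + 1) with limma 3.58.1 in R 4.3.3, with a mean-variance trend and 1 model of 4 diets. Protein-coding genes entered where 2 or more of the 8 libraries held 1 FPKM or more, 12204 in all, and every member with a row passed. Benjamini-Hochberg adjustment ran over those 12204. Fat and sucrose effects were averaged over the levels of the other, with 40% sucrose in HSD and 35% in HFSD counted as the same level. Whole fragments were recovered from the FPKM steps (99.99% of values above 0 came within 0.01 of a whole number). They gave depths and counting intervals and were fitted with voom as an alternative. The recovery and the limma step were tested on simulated data. The number of value columns without a sample was 0.

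Alternatives were other pseudocounts, filters and scalings, voom, a replicate block, and leaving out libraries. Members and lists were chosen with earlier results of these data known. Genes named beyond the members were, per list, up to 3 with the lowest unadjusted p over the 3 diets against ND and, per member, the 3 with the highest Pearson r. Relatives of the members, marker genes and further genes of the PPAR receptor list were named in addition. A few genes that this rule would name are not reported here.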

Additional observations from a re-analysis of the deposited data

How the results depend on the processing

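No member was called in any comparison under any alternative, and the values of the 8 genes kept their direction in 248 refits under other settings and turned in 2, kept it in 127 and turned in 17 with 1 library left out, and kept it in 26 and turned in 4 with ND replicate 2 and HFD replicate 1 both left out, a choice made after seeing the data. The count of members past the fold limits went from 0 to 1 in each diet with a pseudocount of 0.1, to 1 in HSD on the TPM scale, and to 1 in HSD and HFSD with the 2 libraries left out. With 1 library left out it ran from 0 to 1 in each diet, reaching 1 without ND replicate 1 in HFD and without ND replicate 2 in HSD and HFSD. On the TPM scale ACADVL and PPARGC1A in HFSD turned to 0.035 and 0.033. With the 2 libraries left out, HADHA turned to 0.0011 in HFSD and 0.0013 for sucrose, and ANGPTL4 to 0.20 in HSD and 0.16 in HFSD. The causes were not tested.

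Leaving out 1 library at a time turned differences that were small or spread widely: for HFD, CPT2 (-0.19 to 0.060), HADHA (-0.20 to 0.12) and PDK4 (-0.34 to 0.12); for HSD, ANGPTL4 (-0.36 to 0.22), PPARA (-0.047 to 0.14) and PPARGC1A (-0.24 to 0.11); for HFSD, ACADVL (-0.095 to 0.068), HADHA (-0.32 to 0.0011), ANGPTL4 (-0.39 to 0.16) and PPARGC1A (-0.068 to 0.059). The PPARA difference with fat stayed between -0.39 and -0.29, the PDK4 difference with sucrose between -0.59 and -0.36, and that of CPT2 between -0.30 and -0.18. Without turning, the difference from ND ranged from 0.06 to 0.27 for ACADM and -0.33 to -0.01 for HADHA with HSD, from -0.65 to -0.11 for ANGPTL4 and -0.15 to -0.02 for PPARGC1A with HFD, and from 0.03 to 0.09 for ACADM, -0.31 to -0.06 for CPT2 and -0.67 to -0.25 for PDK4 with HFSD. An arm left with 1 library was assumed to vary like the others. With at least 5 FPKM required, the low members were not tested.

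Same-numbered replicates did not deviate together (r from -0.165 to 0.0813 between diets), and a replicate block gave 0 members called in each comparison. At an unadjusted p under 0.05, the HSD count of 2 was 0 with the block and with only the libraries compared, and that of sucrose, 1, was 2 in voom. The count over all genes for sucrose, 42, ranged from 4 without HSD replicate 2 to 82 without ND replicate 1, with 23 in voom and 25 with the block. Between 63 and 224 fragments lay behind the PDK4 and ANGPTL4 values, and counting intervals of the 2 ND retinas did not overlap for PDK4 (1.71 to 2.23 and 1.01 to 1.44 FPKM).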
